A study of Mus musculus with 6 samples.

Results

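The 5 subunits of the transcription factor NF-κB (Nfkb1, Nfkb2, Rel, Rela and Relb) and 5 proteins of its inhibitor family IκB (Nfkbia, Nfkbib, Nfkbie, Nfkbiz and Bcl3) were examined in RNA sequencing of peritoneal macrophages (PEMs). The members were taken by gene symbol. All 10 were among the 15415 genes listed in the deposited table, and all 10 were among the 9030 genes with a mean of at least 1 FPKM in one group, which were tested. FPKM scales the reads on a gene to its length and to the depth of the library, so levels of different genes can be set side by side.

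Knockout libraries 1 to 3 are PEMs with the genotype LysM-Cre; Tim-4 fl/fl and control libraries 1 to 3 are PEMs with the genotype Tim-4 fl/fl. They were compared to ask through which pathway the loss of Tim-4, a receptor for phosphatidylserine, acts in macrophages. Both groups carry the floxed Tim-4 allele. Cre is present in the knockout group alone and is expressed from the lysozyme locus Lyz2, which is active in myeloid cells. The methods describe male C57BL/6J mice of 6 to 8 weeks, an injection of 6% starch into the peritoneal cavity and collection of the cells after 3 days. All 6 libraries carry the treatment label lps, and the methods give 1 μg/ml LPS for 3.5 hours for activated PEMs without saying that the sequenced cells were treated in this way. The genotype entries of the labels are reversed relative to the titles, and the groups here follow the titles. Nothing in the labels says that the 3 libraries of a group came from separate animals, so the p-values measure the spread between these libraries only.

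NF-κB is a dimer of 2 subunits that share a DNA-binding Rel homology domain. Rela, Rel and Relb carry a transactivation domain, whereas Nfkb1 and Nfkb2 are made as the precursors p105 and p100, which are processed to p50 and p52. In resting macrophages the cytoplasmic IκB proteins, encoded by Nfkbia, Nfkbib and Nfkbie, hold the dimers back. Signals such as LPS activate the IκB kinases (IKK), IκB is degraded, and the freed dimers bind κB sites in target genes, Nfkbia among them, whose resynthesis closes a negative feedback loop. Nfkbiz and Bcl3 encode nuclear IκB proteins that bind p50 or p52 on DNA and alter transcription of subsets of target genes.

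Because several members are textbook targets of NF-κB, their promoters are shown first. Of the 10 members, 7 had a promoter in the RefSeq sequences used (GRCm38.p6, 250 bases before to 50 bases after the start). Nfkb1, Relb and Nfkbiz did not. Nfkbia, the member on which the results turn, starts within chr12:55492598-55492897 (minus strand), shown 5′ to 3′ with the match to the κB consensus in capitals:
Nfkbia promoter: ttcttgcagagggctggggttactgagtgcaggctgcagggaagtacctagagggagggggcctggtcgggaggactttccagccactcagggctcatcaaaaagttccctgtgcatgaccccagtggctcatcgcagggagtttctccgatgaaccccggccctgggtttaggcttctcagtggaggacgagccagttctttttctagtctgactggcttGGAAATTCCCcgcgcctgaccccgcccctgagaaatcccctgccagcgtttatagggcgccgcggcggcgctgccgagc
The match lies from -29 to -20, counted from the first transcribed base as position 0. Matches in the other members are shown with the bases on either side, on the strand of the gene, since they place the same motif in both subunit and inhibitor genes:
Rel, chr11:23770920-23771219, minus strand, -92 to -82: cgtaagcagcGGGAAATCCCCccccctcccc
Bcl3, chr7:19822706-19823005, minus strand, 2 to 11: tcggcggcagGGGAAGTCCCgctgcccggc
Nfkbie, chr17:45555450-45555749, plus strand, -106 to -97: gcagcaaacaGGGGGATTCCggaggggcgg
Nfkb2, chr19:46304487-46304786, plus strand, -39 to -29: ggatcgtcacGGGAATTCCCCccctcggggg
Nfkb2, same promoter, -11 to -2: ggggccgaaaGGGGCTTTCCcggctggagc
Nfkb2, chr19:46305445-46305744, plus strand, -236 to -227: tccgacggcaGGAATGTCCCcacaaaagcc
Nfkb2, same promoter, 10 to 19: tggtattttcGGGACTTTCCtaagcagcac
In Rel and in the first of the Nfkb2 sites, matches that overlap by all but 1 base are marked as 1 run. The last Nfkb2 site also falls in another Nfkb2 promoter, chr19:46305680-46305979, at -225 to -216.

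The κB consensus, searched on both strands, was found in 5 of the 7 member genes with a promoter (71.4%). Rela and Nfkbib had no match. Counted by gene in the same way, the share was 5.14% of all 27025 genes with a promoter and 6.17% of the 7313 tested genes with one. Counted by promoter, it was 7 of 9 member promoters (77.8%) and 4.51% of all 32851 promoters of the same length. Among other genes of the pathway the consensus was found in 8 of 19 NF-κB target genes (42.1%) and 3 of 9 deubiquitinases and other terminators (33.3%). It was also found in 2 of 15 IKK components, upstream kinases and their partners (13.3%) and in 1 of 14 adaptors and ubiquitin ligases (7.14%). A looser form of the motif, GGGNNNNNCC, was present in 6 of the 7 member genes (85.7%), against 72.1% of the tested genes. A match describes the letters in these windows and does not show that a factor is bound there.

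Between 36170767 and 42217558 reads per library were recovered on the listed genes. Timd4, the gene of Tim-4, measured 0.333, 0.394 and 0.246 FPKM in knockout libraries 1 to 3, compared with 19.5, 12 and 1.19 FPKM in control libraries 1 to 3. The groups did not overlap, control library 3 was the lowest control, and the difference was -2.66 on the log2(FPKM + 1) scale (adjusted p = 0.0715, limma). A block by replicate number gave an adjusted p of 0.0436. It was 0.0524 with the block on rescaled values, 0.0458 with a pseudocount of 0.1 (difference -4.005), 0.218 with voom and 0.00041 without control library 3. Lyz2 was at 41.4 and 106 FPKM in knockout libraries 1 and 3 but at 4656 FPKM in knockout library 2, against 7090 to 8482 FPKM in the controls (adjusted p = 0.103, limma). Without knockout library 2 the adjusted p of Lyz2 was 0.00552 (limma). Over all tested genes the median log2 fold change was -0.11, and it was 0.01 after the libraries were rescaled by the median of ratios.

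Nfkbia was the 1 member that passed the test. Its mRNA was 1.82 times as high in the knockout libraries as in the controls, while the 5 subunits, the other 2 cytoplasmic inhibitors and the 2 nuclear IκB proteins did not pass. Of the 9030 tested genes, 7.31% passed in either direction and 2.57% passed as higher (4.74% as lower), so 1 of 10 members is near the background. Over all genes 232 passed as higher and 428 as lower, and after rescaling 343 as higher and 326 as lower. At an unadjusted p of 0.05, 1 of 10 members passed, against 27.6% of all tested genes.

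**Figure D1:**
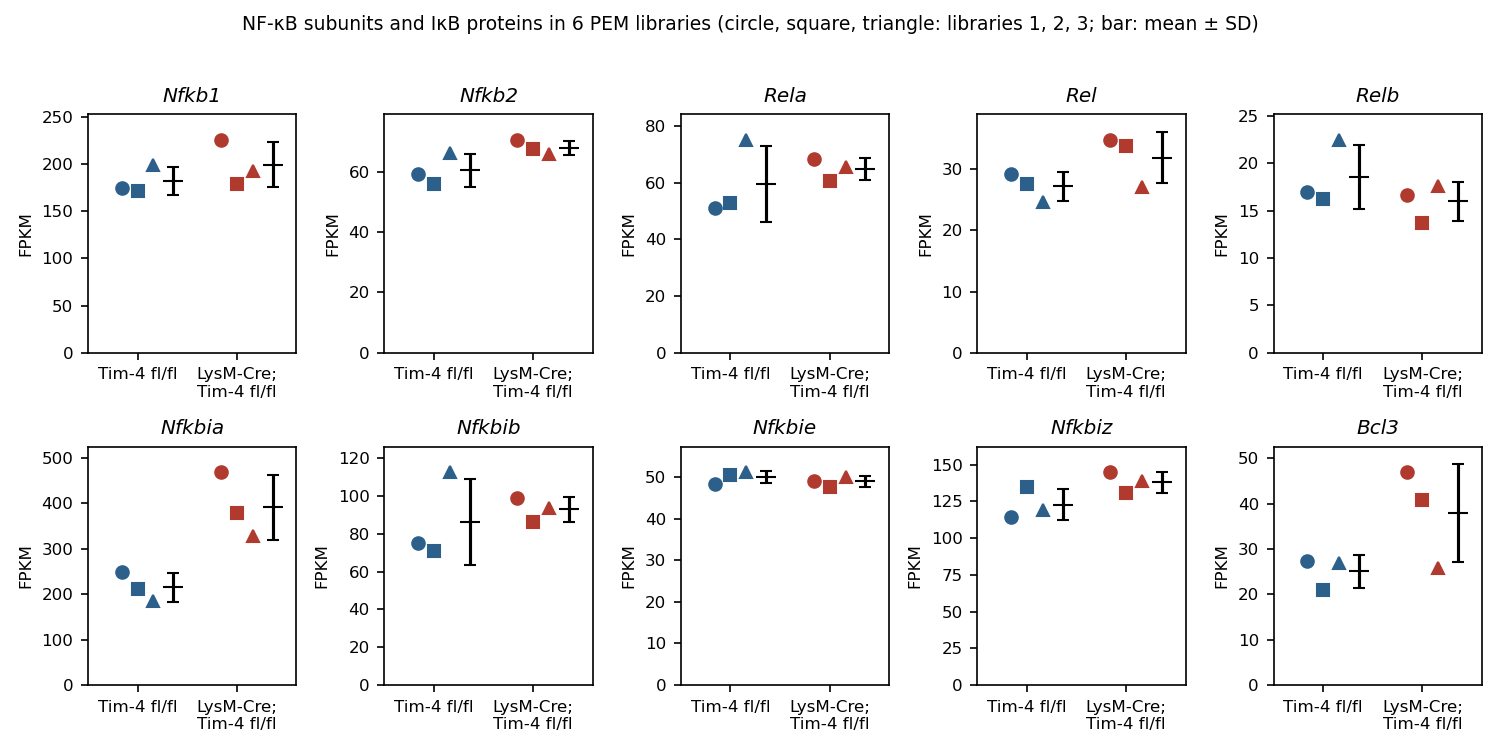
FPKM of the 10 members (vertical axes, each from 0) in the 3 Tim-4 fl/fl libraries (blue) and the 3 libraries of LysM-Cre; Tim-4 fl/fl (red), with symbols for library numbers and bars for the mean ± SD. Nfkbia, at 327 to 469 FPKM in the knockout and 185 to 249 FPKM in the control libraries, is the member whose groups do not overlap.

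Nfkbia encodes IκBα, the inhibitor that is degraded and resynthesised most rapidly. It had a level of 469, 379 and 327 FPKM in knockout libraries 1 to 3, compared with 249, 211 and 185 FPKM in controls 1 to 3. The lowest knockout library lay above the highest control library. The means were 392 ± 71.5 FPKM and 215 ± 32.1 FPKM (SD, n = 3 each). On the log2(FPKM + 1) scale the difference was 0.86 (standard error 0.18, 95% confidence interval 0.43 to 1.28, adjusted p = 0.0355, limma). Behind these values stood 21156 to 31098 reads in the knockout and 10573 to 15513 reads in the control libraries. With the replicate number as a block the call held (adjusted p = 0.0219, limma). It did not hold after rescaling by the median of ratios (difference 1.003, adjusted p = 0.0528, limma), with voom on the recovered reads (1.01, adjusted p = 0.0545), or with no filter on low values (adjusted p = 0.0634, limma). Leaving out knockout library 1 (0.72, adjusted p = 0.141, limma), knockout library 2 (0.87, adjusted p = 0.146) or control library 2 (0.85, adjusted p = 0.137) also lost it. In every one of these fits Nfkbia was higher in the knockout libraries. As its groups did not overlap, leaving out a single library could not have reversed this direction. The share of all genes that passed was 9.47% with the block, 7.41% after rescaling, 9.29% with both, 6.52% with voom and 2.89% with no filter, and a filter on reads and a pseudocount of 0.1, under which the call held, gave 6.44% and 7.66%. Without knockout libraries 1, 2 and 3 it was 0.332%, 0.698% and 5.83%, and without control libraries 1, 2 and 3 it was 8.7%, 0.0886% and 14.2%. The 3 fits with a single library left out that lost Nfkbia thus also had the smallest shares over all genes. Nfkbia and Nfkb2 belong to the genes that the study itself showed in a heat map of these libraries, so their direction here is not independent of that choice. In bulk RNA, fewer cells of a type and less RNA per cell cannot be told apart.

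**Figure D2:**
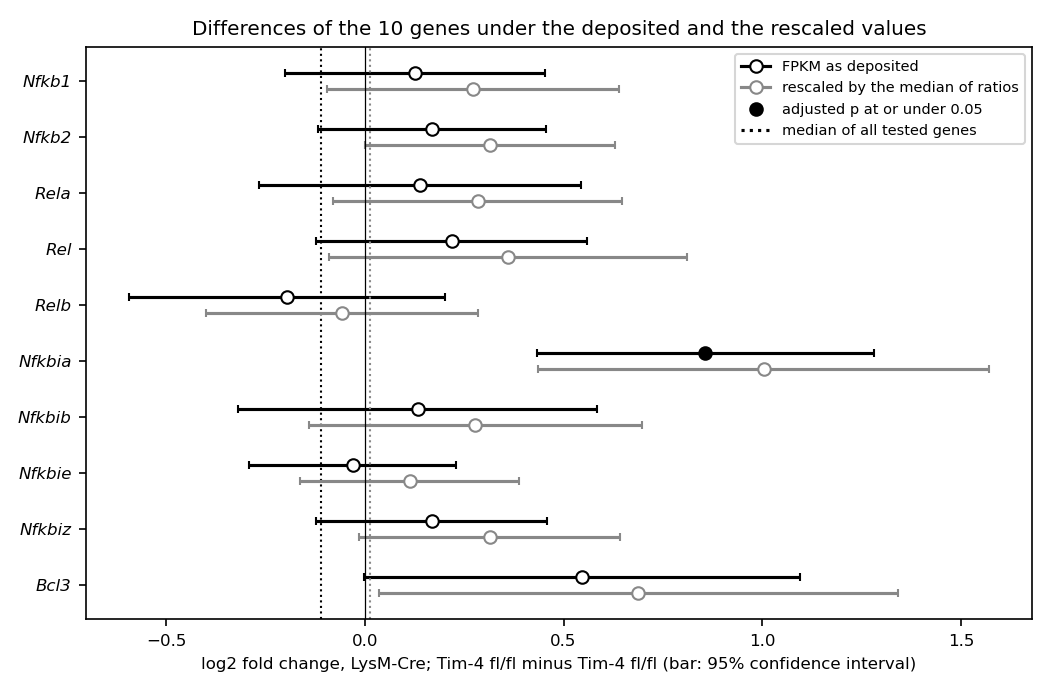
Log2 fold change (knockout minus control, horizontal axis) of each member with its 95% confidence interval, from the deposited FPKM (black) and after rescaling by the median of ratios (grey). A filled circle marks an adjusted p at or under 0.05, and dotted lines mark the medians of all tested genes, -0.11 and 0.01. Nfkbia, at 0.86 and 1.003, lies farthest from 0.

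The other cytoplasmic inhibitors, which bind overlapping sets of dimers, did not pass the test. Nfkbib, the gene of IκBβ, was found at 99.1, 86.2 and 93.4 FPKM in knockout libraries 1 to 3, compared with 75.4, 71.1 and 113 FPKM in control libraries 1 to 3. Control library 3 was above all 3 knockout libraries and the other two controls were below them, and the difference was 0.13 on the log2 scale (95% confidence interval -0.32 to 0.58, adjusted p = 0.683, limma). Without control library 3 it was 0.34 (95% confidence interval 0.041 to 0.63, unadjusted p = 0.0312, adjusted p = 0.120, limma), and without control library 2 it was 0.0095. Nfkbie, the gene of IκBε, stood at 49.1, 47.6 and 50.1 FPKM in the knockout libraries, compared with 48.3, 50.5 and 51.1 FPKM in the controls. The groups overlapped closely, with a coefficient of variation of 2.50% and 2.92%, the smallest among the members in either group. Its difference of -0.03 (95% confidence interval -0.29 to 0.23, adjusted p = 0.879, limma) turned to 0.11 after rescaling and to 0.12 with voom, and none of these passed.

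The nuclear IκB proteins were higher on average in the knockout libraries without passing the test. Nfkbiz, whose product IκBζ is induced early by LPS and is needed for a second wave of target genes, measured 145, 130.5 and 139 FPKM in knockout libraries 1 to 3, compared with 115, 135 and 119 FPKM in controls 1 to 3. Control library 2 exceeded knockout library 2, so the groups overlapped (difference 0.17, 95% confidence interval -0.12 to 0.46, adjusted p = 0.409, limma). Bcl3, a partner of p50 and p52 homodimers, had a level of 46.9, 40.9 and 25.8 FPKM in the knockout libraries, compared with 27.3, 20.9 and 26.9 FPKM in the controls. Knockout libraries 1 and 2 stood above all controls, while knockout library 3 was among them. With 0.55, Bcl3 had the second largest difference of the members (95% confidence interval -0.003 to 1.09, adjusted p = 0.182, limma). The adjusted p of Bcl3 lay between 0.0593 (without knockout library 3) and 0.468 (without knockout library 2) over the alternatives.

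In the fit of the deposited values none of the 5 subunits passed the test, adjusted or not, and their groups overlapped in each case. Nfkb1, the precursor of p50 and the most abundant subunit, was found at 225, 179 and 193 FPKM in knockout libraries 1 to 3, compared with 175, 171 and 199 FPKM in controls 1 to 3. Knockout library 1 was the highest, and control library 3 exceeded the other two knockout libraries. The 95% confidence interval of the log2 difference, 0.13, ran from -0.20 to 0.45 (adjusted p = 0.587, limma).

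Nfkb2, the precursor of p52 in the alternative pathway, measured 70.5, 67.4 and 66.0 FPKM in the knockout libraries, compared with 59.2, 55.8 and 66.3 FPKM in the controls. Control library 3 alone, just above knockout library 3, made the groups overlap (difference 0.17, 95% confidence interval -0.12 to 0.46, adjusted p = 0.397, limma). Relb, its usual partner, had a level of 16.6, 13.7 and 17.6 FPKM in knockout libraries 1 to 3, compared with 16.9, 16.2 and 22.5 FPKM in control libraries 1 to 3. It was the member with the lowest difference, -0.20 (95% confidence interval -0.59 to 0.20, adjusted p = 0.481, limma). Control library 3 was above all other libraries, knockout library 2 was below all others, and the groups overlapped in between. The difference of Relb was -0.06 after rescaling and also -0.06 without control library 3.

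Rela, the p65 subunit of the classical dimer with p50, was found at 68.4, 60.7 and 65.5 FPKM in the knockout libraries, compared with 51.1, 52.8 and 75.1 FPKM in the controls. The knockout libraries lay between control library 3 and the other two controls (difference 0.14, 95% confidence interval -0.27 to 0.54, adjusted p = 0.631, limma). Without control library 3 the difference was 0.31 (95% confidence interval 0.026 to 0.60, unadjusted p = 0.0366, adjusted p = 0.132, limma), and without control library 1 it was 0.040. Rel, the c-Rel subunit of lymphoid and myeloid cells, measured 34.7, 33.8 and 27.1 FPKM in knockout libraries 1 to 3, compared with 29.3, 27.6 and 24.6 FPKM in control libraries 1 to 3. Knockout library 3 was below control libraries 1 and 2, and the other knockout libraries were above all controls. The difference was 0.22 (95% confidence interval -0.12 to 0.56, adjusted p = 0.362, limma). With the block on rescaled values it was 0.36 (95% confidence interval 0.048 to 0.67, unadjusted p = 0.0306, adjusted p = 0.132, limma).

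Counted together, 8 of the 10 members had a log2 fold change above 0, with a median of 0.15, while 36.5% of all tested genes did, with a median of -0.11. After rescaling it was 9 of 10 members with a median of 0.30, and 51.6% of all tested genes with a median of 0.01. The groups of 1 member, Nfkbia, did not overlap, and this was so for 34.1% of all tested genes (11.1% higher, 23.0% lower). Among the rescaled values, Nfkb1, Nfkb2, Nfkbia and Nfkbiz were higher in every knockout library than in every control library, 4 of 10 members, against 32.8% of all tested genes in either direction and 17.2% as higher.

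**Figure D3:**
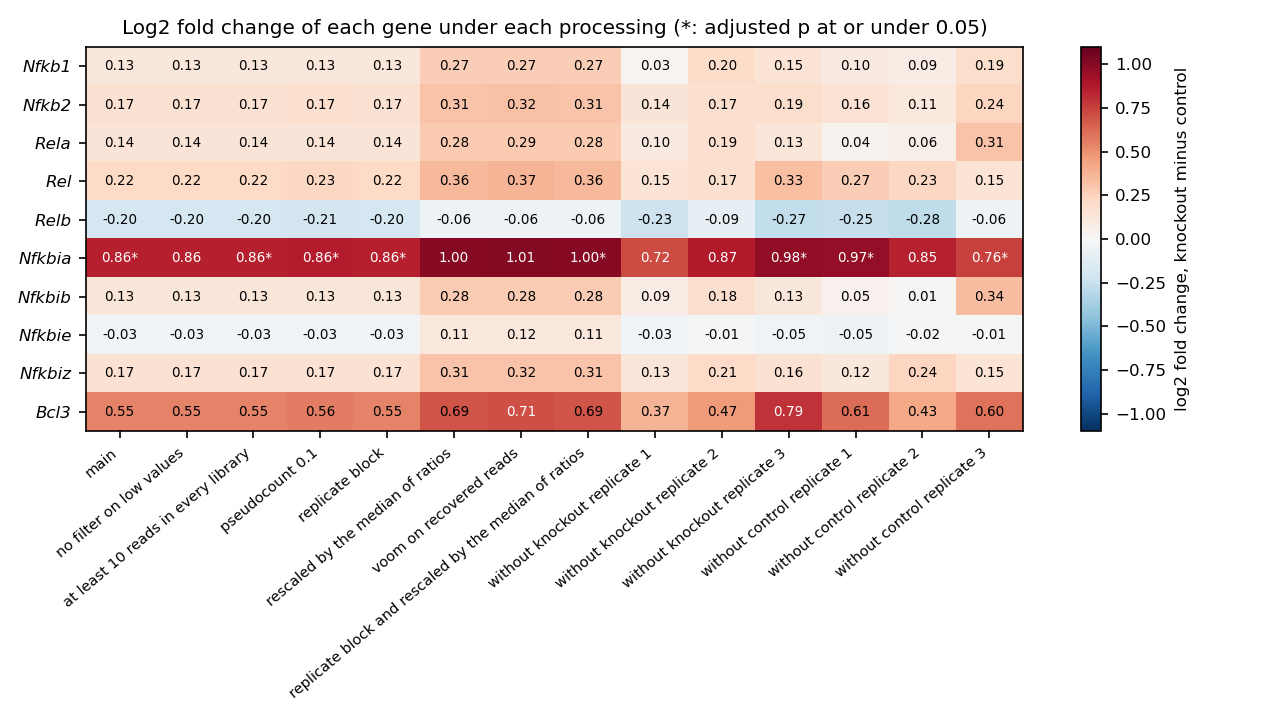
Log2 fold change (knockout minus control) of each member (rows) in the fit as reported and under each alternative (columns), printed in the cell and coloured from blue (lower) to red (higher). An asterisk marks an adjusted p at or under 0.05, which Nfkbia alone reached.

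The order of the levels differed little between the groups. In the knockout libraries the means ran from Nfkbia (392 FPKM) through Nfkb1 (199), Nfkbiz (138), Nfkbib (92.9), Nfkb2 (68.0), Rela (64.9), Nfkbie (48.9), Bcl3 (37.9) and Rel (31.9) to Relb (16 FPKM). Neighbours whose libraries overlapped were Nfkb2 with Rela and Bcl3 with Rel, 2 of 9 neighbour pairs. In the control libraries the order was Nfkbia (215 FPKM), Nfkb1 (182), Nfkbiz (123), Nfkbib (86.4), Nfkb2 (60.4), Rela (59.7), Nfkbie (50), Rel (27.2), Bcl3 (25.0) and Relb (18.5 FPKM). There 5 of 9 neighbour pairs overlapped, namely Nfkbia with Nfkb1, Nfkb2 with Rela, Rela with Nfkbie, Rel with Bcl3 and Bcl3 with Relb. Nfkbia and Nfkb1 were thus apart in the knockout libraries and not in the controls. Even Relb, the lowest member, was above 68.8% of the tested genes in the knockout and 71.0% in the control libraries, and Nfkbia was above 98.2% and 96.6%.

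The FPKM ratio of 2 members within a library does not depend on how that library was scaled. The differences in log2 ratio that were tested were computed from log2(FPKM + 1) of both members, so they carry this pseudocount and can differ slightly from those of the FPKM ratios given. The FPKM of Nfkbia was 6.85, 6.24 and 5.0 times that of Rela in knockout libraries 1 to 3 and 4.87, 3.99 and 2.47 times in control libraries 1 to 3. The groups did not overlap, with a difference of 0.72 in the log2 ratio (two-sided exact permutation p = 0.1, 0.167 after Benjamini-Hochberg adjustment over 5 ratios). With 3 libraries against 3 the test cannot give a p below 0.1. The Nfkb2 to Relb ratio, between the partners of the alternative pathway, was 4.24, 4.93 and 3.74 in the knockout and 3.5, 3.43 and 2.95 in the control libraries. Here too the groups did not overlap (log2 difference 0.37, or 0.38 with a pseudocount of 0.1, exact permutation p = 0.1, adjusted 0.167). The Nfkbiz to Nfkbia ratio, an induced nuclear over an induced cytoplasmic IκB, was 0.309, 0.345 and 0.424 against 0.461, 0.639 and 0.644. It was lower in every knockout library, by a log2 difference of -0.69 (exact permutation p = 0.1, adjusted 0.167). Nfkb1 to Rela differed by -0.01 (exact permutation p = 1) and Rel to Rela by 0.08 (exact permutation p = 0.9), and both overlapped between the groups.

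Summed FPKM of the 5 subunits was 415, 355 and 369 in knockout libraries 1 to 3 and 331, 324 and 388 in control libraries 1 to 3, with overlap. Summed FPKM of the 3 cytoplasmic IκB genes was 617, 513 and 471 against 373, 332 and 349, without overlap. The IκB sum was thus 1.48, 1.45 and 1.28 times the subunit sum in the knockout and 1.13, 1.03 and 0.90 times in the control libraries. Nfkbia is the largest part of the IκB sum, so these totals are not independent of its difference.

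**Figure D4:**
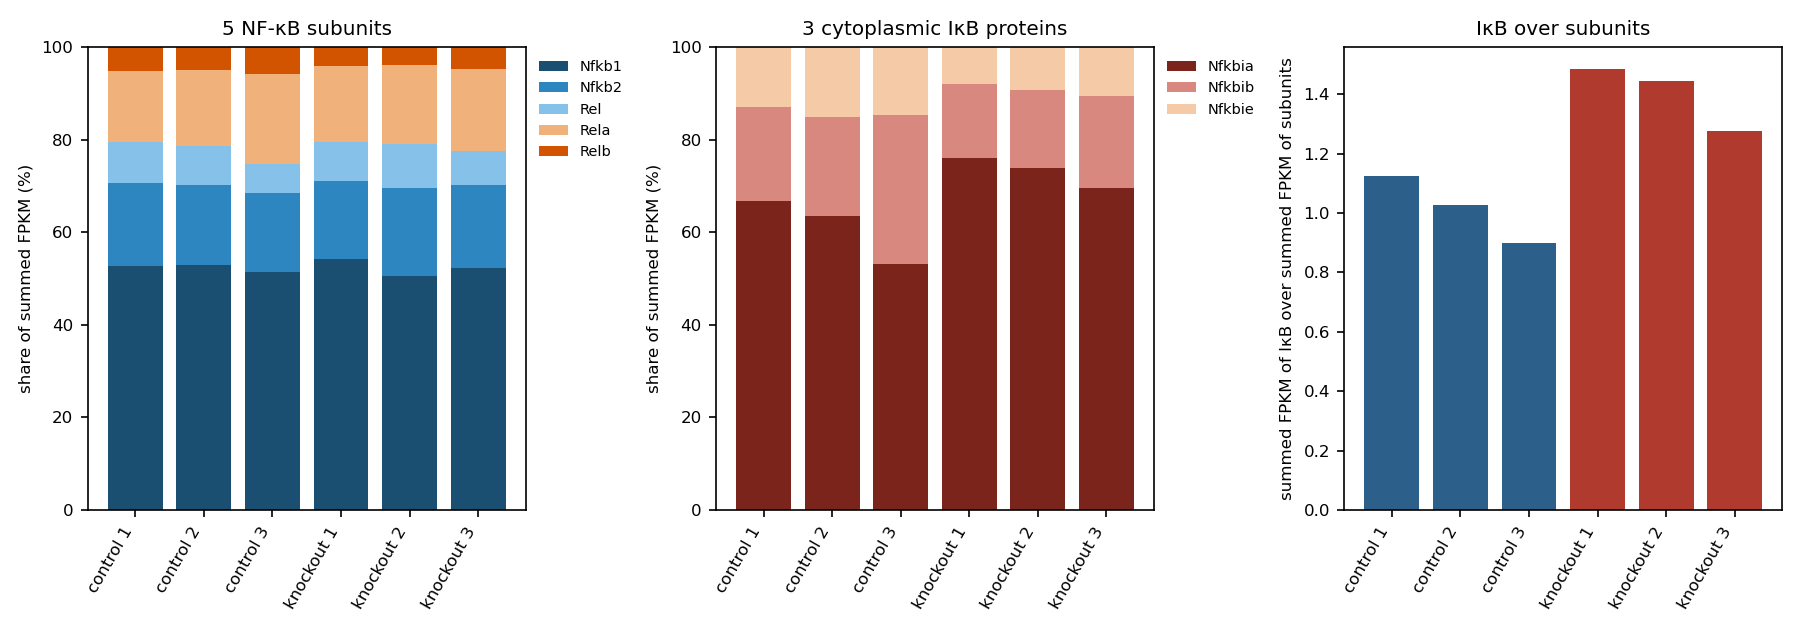
Share of each gene in the summed FPKM of the 5 subunits (left, percent) and of the 3 cytoplasmic IκB genes (middle, percent), and the IκB sum over the subunit sum (right), in each library. Nfkb1 makes up 50.5 to 54.2% of the subunits in all 6 libraries, and Nfkbia takes 69.5 to 76.0% of the IκB sum in the knockout and 53.1 to 66.8% in the control libraries.

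Within the subunits, Nfkb1 held 54.2%, 50.5% and 52.2% of the FPKM in the knockout and 52.7%, 52.9% and 51.4% in the control libraries, and its share overlapped between the groups, as did those of Nfkb2, Rel and Rela. Relb held 4.01%, 3.85% and 4.79% against 5.11%, 5.02% and 5.79%, lower in every knockout library (exact permutation p = 0.1, 0.2 after adjustment over 8 shares). Within the cytoplasmic IκB genes, Nfkbia held 76.0%, 73.9% and 69.5% against 66.8%, 63.4% and 53.1%. The shares of Nfkbib (16.1 to 19.8% against 20.2 to 32.3%) and Nfkbie (7.95 to 10.6% against 13.0 to 15.2%) were lower in every knockout library. The 3 shares add up to the whole and are not independent of each other. Each of these 3 shares had an exact permutation p of 0.1 and an adjusted p of 0.2.

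Across the 6 libraries the members did not follow one course. By Pearson correlation of log2(FPKM + 1), given as a description of 6 libraries that include the group difference, Rela and Nfkbib were closest (r = 0.98), both with their highest value in control library 3. Nfkbia correlated with Rel at 0.87 and with Bcl3 at 0.84, but with Rela at 0.16 and with Relb at -0.60. Among all tested genes, the profiles most like that of Nfkbia were those of Pttg1 (r = 0.997), Rnf214 (0.995) and Car13 (0.992). Those nearest to Rela were Zhx2 (0.993), Vps35l (0.993) and Ebi3 (0.990), and those nearest to Nfkb1 were Poldip3 (0.957), Gemin7 (0.950) and Il12a (0.937). Pttg1 had a level of 19.6, 17.0 and 14 FPKM in the knockout libraries, compared with 11.1, 9.09 and 7.80 FPKM in the control libraries, with the same order of libraries as Nfkbia.

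The other genes of the pathway were read from the same fit, in lists by role. Of 19 IKK components, upstream kinases and their partners (the kinase list), 1 rose and 1 fell, with a median log2 fold change of -0.10. Set against the 7.31% of all tested genes that passed, 2 of 19 is near the background. Map3k8, the kinase Tpl2 that is held by p105, was found at 35.4, 34.6 and 24.8 FPKM in the knockout libraries, compared with 15.3, 18.1 and 16.2 FPKM in the control libraries (difference 0.88, adjusted p = 0.0284, limma). Ikbkg, the regulatory IKK subunit NEMO, fell from 16.9, 23.4 and 23.5 FPKM in control libraries 1 to 3 to 9.06, 5.46 and 9.30 FPKM in knockout libraries 1 to 3 (difference -1.34, adjusted p = 0.0204, limma). The groups of both genes were separate. With the replicate block 4 genes of this list passed. Leaving out knockout library 1, knockout library 2 or control library 2 brought the count to 0, as it did for the adaptors.

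Of 15 tested adaptors and ubiquitin ligases (16 listed, with Btrc under the filter), 1 fell and the median was 0.00, and 1 of 15 is near the same background of 7.31%. This was Traf5, an adaptor of TNF receptor family members, at 12.4, 10.1 and 15.2 FPKM in the knockout and 31.5, 25.6 and 25.1 FPKM in the control libraries (difference -1.08, adjusted p = 0.0196, limma). With the block 2 passed, and without control library 1 also 2. Of 11 deubiquitinases and other terminators of the signal, 0 passed with limma as deposited or with voom, 3 had an unadjusted p under 0.05, and the median was 0.02. The smallest adjusted p-values were those of Otud7b (difference -0.49, adjusted p = 0.0555, limma) and N4bp1 (0.53, adjusted p = 0.107, limma). N4bp1 passed with the block on rescaled values (0.66, adjusted p = 0.0473, limma). Otud7b, a deubiquitinase, passed without control library 3 (adjusted p = 0.0319, limma). Of 5 further IκB proteins and IκB partners 3 were tested and 0 passed with limma or with voom, none of them at an unadjusted p of 0.05 either (0). Nfkbil1 (difference -0.20, adjusted p = 0.422, limma) and Nfkbid, another nuclear IκB (-0.11, adjusted p = 0.705, limma), had the smallest adjusted p-values.

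Of 25 NF-κB target genes 5 rose and 2 fell, and the median was 0.40. Over all tested genes 2.57% passed as higher and 4.74% as lower, with a median of -0.11. The leading genes that rose were Irf1, a transcription factor (difference 1.27, adjusted p = 0.00651, limma), Gadd45b, a stress response gene (1.31, 0.0267), Csf1, the macrophage growth factor (1.09, 0.0329), and Cd83, an activation marker (1.38, 0.0341). The neutrophil chemokines Cxcl2 (-0.99, adjusted p = 0.0197, limma) and Cxcl1 (-1.21, 0.0254) fell. Cd40, a receptor for T cell help, also rose (0.997, adjusted p = 0.0396, limma), but it did not pass after rescaling (adjusted p = 0.0554, limma) or with voom (0.0581). Cxcl1 did not pass with the block on rescaled values (adjusted p = 0.0549, limma). Irf1 measured 187, 180 and 162 FPKM in the knockout libraries, compared with 75.3, 65.6 and 76.7 FPKM in the control libraries, so its groups were far apart. Tnf and Il1b, the cytokines that the paper followed, overlapped between the groups. The knockout mean was higher for Tnf (4924 against 3775 FPKM) and lower for Il1b (993 against 1526 FPKM). Of these 25 genes, 6 (Tnf, Ccl4, Icam1, Csf1, Cd40 and Bcl2l1) were in the heat map that the study drew from these libraries, and they are not independent evidence of a direction. The count of 7 became 10 with the block and 1 with no filter on low values. Omitting knockout library 1 or control library 2 gave 0, omitting knockout library 2 gave 1 and omitting control library 3 gave 12. Of 7 genes that depend on IκBζ 1 rose, Cebpd, a transcription factor of the acute phase, at 19.6, 23.1 and 21.1 FPKM against 9.80, 12 and 13.3 FPKM (difference 0.82, adjusted p = 0.0254, limma), and the median was 0.06. This is 1 of 7, against 7.31% of all tested genes. With the block 3 passed, and without control library 3 also 3. Leaving out any one knockout library, or control library 2, left 0.

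**Figure D5:**
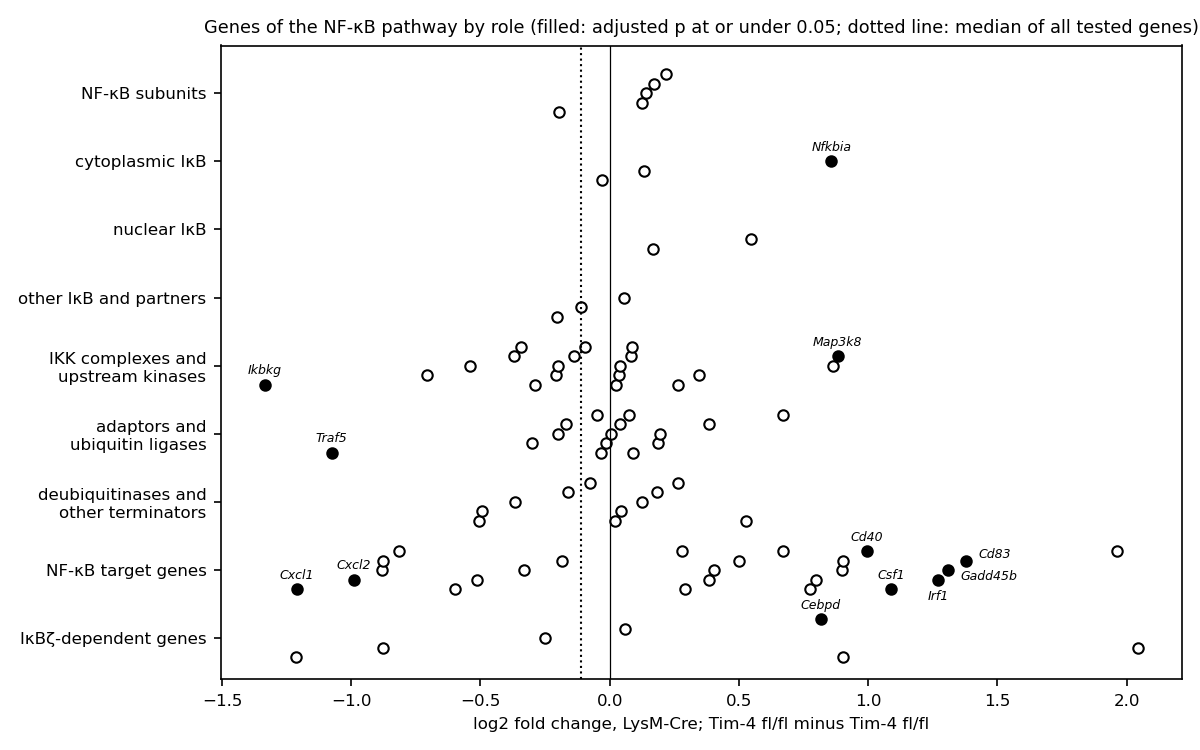
Log2 fold change (knockout minus control, horizontal axis) of the tested genes of the NF-κB pathway, one circle per gene and one row per role, spread vertically for legibility. Filled circles with names have an adjusted p at or under 0.05, and the dotted line is the median of all tested genes, -0.11. The 5 subunits lie between -0.20 and 0.22, while the target genes lie between -1.21 and 1.96.

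Markers of other cells differed between the groups. Summed FPKM of 5 macrophage markers was 2244 to 2434 in the knockout and 1634 to 2175 in the control libraries, and 0 of 5 passed with limma (2 at an unadjusted p of 0.05) or voom. Cd68 made up most of this sum (mean 1642 against 1091 FPKM), while Adgre1, Itgam and Csf1r, 3 of the 5, had lower means in the knockout libraries. Csf1r did not overlap between the groups (mean 105 against 168 FPKM, adjusted p = 0.0903, limma). Markers of large peritoneal macrophages were at 3.38 to 6.10 against 33.1 to 138 FPKM, most of it Prg4, and this list includes Timd4 itself. Of its 3 tested genes Prg4 and Icam2 fell. Markers of small peritoneal macrophages were at 467 to 1236 against 827 to 2247 (1 of 4 fell). All 5 tested B cell markers fell (2.78 to 5.52 against 27.5 to 115 FPKM), as did all 4 tested mast cell markers (1.29 to 1.46 against 23.9 to 28.6 FPKM). T cell markers were at 1.07 to 1.72 against 2.68 to 10.7 FPKM (1 of 2 tested fell). The one that fell was Cd2 (mean 0.432 against 4.88 FPKM), while Lck overlapped (0.987 against 1.13 FPKM). Neutrophil markers were at 41.6 to 72.9 against 160 to 174 FPKM (1 of 3 fell, 2 with the block). S100a8 made up most of this sum (mean 54.4 against 161 FPKM). S100a9 overlapped between the groups (1.04 against 2.47 FPKM) and Retnlg did not (0.962 against 2.33 FPKM). The 2 listed eosinophil markers were at 0.0978 to 0.490 against 0.642 to 1.07 FPKM, under the filter. Mesothelial and fibroblast markers were at 12 to 33.7 against 2.08 to 12.9 FPKM, with 0 of 4 tested genes passing with limma (2 with the block). These counts also moved with the fit. Of the 5 B cell markers 3 passed after rescaling, 2 with no filter and 1 with voom, and 0 passed without knockout library 1, without knockout library 2 or without control library 2. The part of these cells in the values of Nfkbia, the other members and the pathway genes was not tested.

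Some values could hold reads of a neighbouring gene, since the use of strand in counting is not given in the sources used here. In GENCODE M21 the exons of Nfkb2 overlap those of Psd on the opposite strand over 299 bases, and Psd was at most at 0.0897 FPKM. Nfkb2 overlaps a further transcript, Nfkbib overlaps Ccer2 over 314 bases and Bcl3 overlaps Gm16175 over 55 bases. Traf5, Irf1 and Cebpd also overlap a gene on the opposite strand (205, 100 and 562 bases). The gene that overlaps Cebpd, Spidr, was at 2.95 FPKM in knockout library 1, its lowest value, and at 6.21 FPKM in control library 3, its highest. Relb and Bcl3 are near each other on chromosome 7, with 13 RefSeq genes between them, yet their differences had opposite signs, -0.20 and 0.55, neither of which passed the test.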

How the data were processed

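RNA of PEMs was sequenced in 6 libraries, 3 knockout and 3 control. The authors deposited FPKM per gene and library, and mean signal per group, read counts divided by DESeq2 size factors as the column names say. The submitters' processing notes name the build mm9. The aligner, the counter and the annotation are not given in the sources used here. The deposited table also holds the authors' own fold changes, p-values and q-values, which were not used. The FPKM and group means together gave back whole reads (100% of values within 0.05 of a whole number). No per-sample column was left out (0).

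A count model had been planned in case of counts. As the values are FPKM, log2(FPKM + 1) of the 9030 genes with a mean of at least 1 FPKM in one group was fitted with limma 3.58.1 (lmFit, eBayes with a trend) in R 4.3.3, with Benjamini-Hochberg adjustment and a threshold of 0.05. A fold change on this scale understates the change of low genes. The fit was tested on simulated data. Ratios and shares were compared with two-sided exact permutation tests in scipy 1.17.1. The shares, sums and correlations between members were chosen after values had been seen. Members, lists and tests were chosen with earlier results of these data known. Of each list other than the members, the genes past the threshold were named, at most 4 in each direction by adjusted p, or the 2 with the smallest adjusted p where none passed. Timd4, Lyz2 and the 3 genes most like Nfkbia, Rela and Nfkb1 were named as well. Cd40, Tnf and Il1b were named after their values were seen. Names in the sentences on the heat map, on Btrc, on cell markers and on neighbouring genes fall outside this rule.

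The deviations of same-numbered libraries from the means of their groups had weak positive correlations of 0.109, 0.110 and 0.304 (others -0.332 to 0.291). Knockout library 2 correlated more with control library 1 (0.291) than with control library 2 (0.110). The numbers were taken as pairs for the fit with a block from this check alone, so results with the block rest on a weak pairing. Alternatives were no filter, at least 10 reads in every library, a pseudocount of 0.1, the block, FPKM rescaled by the median of ratios, voom on the recovered reads, and each library left out in turn. The block together with rescaling was added after seeing the data. RefSeq (GRCm38.p6) and GENCODE M21 served for names, promoters and overlaps, and no coordinate was converted.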

Additional observations from a re-analysis of the deposited data

How the results depend on the processing

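The count of members past the threshold, 1, became 0 with no filter on low values, 0 after rescaling by the median of ratios and 0 with voom on the recovered reads. It stayed at 1 with the replicate block alone and with the replicate block on rescaled values, a combination chosen after seeing the data, where Nfkbia had an adjusted p of 0.0198 (limma). The cause of these losses was not tested. Rescaling raised the members whose groups do not overlap from 1 to 4. Nfkbie turned from -0.03 to 0.11 after rescaling and to 0.12 with voom. Among the other lists the replicate block gave 4 genes of the kinase list in place of 2 and 2 adaptors in place of 1. It gave 10 target genes in place of 7 and 3 IκBζ-dependent genes in place of 1. The block also brought Timd4 past the threshold, though not on rescaled values (adjusted p = 0.0524, limma), and changed no call of another gene whose test value is printed. With no filter the target genes went from 7 to 1.

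Over the 6 fits that each leave out 1 library, between 8 and 1278 genes passed in place of 660, 0 to 1 members, 0 to 3 genes of the kinase list, 0 to 2 adaptors, 0 to 1 terminators, 0 to 12 target genes and 0 to 3 IκBζ-dependent genes. In these fits 1 to 5 members did not overlap. Fewer libraries separate more easily, and the share over all genes is not given for these fits. This range is thus not a result about the members. The fewest genes passed without control library 2 and the most without control library 3. The log2 difference of Nfkb1 to Rela lay between -0.12 and 0.060 and that of Rel to Rela between -0.16 and 0.23. Those of Nfkbia to Rela (0.44 to 0.93), Nfkb2 to Relb (0.27 to 0.46) and Nfkbiz to Nfkbia (-0.85 to -0.59) kept their direction. As the groups of these ratios did not overlap, leaving out 1 library could not have reversed them. Each of the 10 members kept its direction in all 6 of these fits, which for Nfkbia, without overlap, could not have been otherwise. The size moved, for Nfkb1 from 0.034 to 0.20, Nfkb2 0.11 to 0.24, Rel 0.15 to 0.33, Rela 0.040 to 0.31, Relb -0.28 to -0.06, Nfkbia 0.72 to 0.98, Nfkbib 0.0095 to 0.34, Nfkbie -0.05 to -0.01, Nfkbiz 0.12 to 0.24 and Bcl3 0.37 to 0.79. Each member had at least 1505 reads in every library.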
